A study of Mus musculus with 319 samples.

Results

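Major histocompatibility complex (MHC) class II genes were followed across muscle of F2 mice on 319 arrays. The 6 genes were the classical chains H2-Aa and H2-Eb1, the chain H2-Ea, the chaperone chains H2-DMa and H2-DMb1, and the activator Ciita. They were chosen by name, and each had exactly 1 probe, so the report covers 6 of 23382 probes, which carry 6 of 10936 named genes. All 6 probes had a value on all 319 arrays and all 6 passed the filter for testing. In the RefSeq assembly GRCm38.p6, H2-DMa, H2-DMb1, H2-Aa, H2-Eb1 and H2-Ea lie on chromosome 17 in that order, and Ciita lies on chromosome 16. For H2-Ea the ID of the platform table is absent from that assembly, which was built from C57BL/6J and lists H2-Ea as a transcribed pseudogene, so this probe was matched by its symbol.

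All arrays formed 1 group. The animals were F2 mice of both sexes, bred from C57BL/6J and C3H/HeJ parents that both lacked ApoE, and all ate a high fat Western diet between 8 and 24 weeks of age. Every array compared RNA of 1 animal (Cy3) with a pool of RNA from all animals (Cy5). The labels give no genotype at any locus, no hybridization batch, and a sex for 1 array alone, so genotype, sex and batch were assigned to no array, and their part in the results was not tested. A pair of arrays carried animal number 227 and both were kept: H2-Ea read -0.39 on one and 0.08 on the other, and H2-Eb1 read -1.37 and -1.17.

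Class II molecules are pairs of an alpha and a beta chain that show peptides from engulfed proteins to helper T cells. They are made mainly by B cells, dendritic cells and macrophages, and by other cells after interferon gamma. H2-Aa encodes the alpha chain of I-A, H2-Eb1 the beta chain of I-E, and H2-Ea the alpha chain that pairs with the H2-Eb1 product. H2-DMa and H2-DMb1 encode the chains of H2-DM, which loads peptides onto class II molecules, and Ciita encodes the coactivator that switches class II genes on. C57BL/6J carries the H2b haplotype, in which H2-Ea lacks its promoter and is not expressed, whereas C3H/HeJ carries H2k, in which it is.

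The RefSeq table held start-site windows for 4 of the 6 genes, with 250 bases before the start and 50 after it. The windows of H2-Aa, H2-Eb1 and H2-DMb1 are shown because they held an X box or X2 core, and Ciita acts through the conserved X and Y boxes found near class II starts. Capitals mark 3 motifs searched on both strands: CTAGNAAC, a core of the X box, TGACGTCA, an X2 core, and GATTGG, the Y box. These motifs did not overlap in the windows shown.
H2-Aa: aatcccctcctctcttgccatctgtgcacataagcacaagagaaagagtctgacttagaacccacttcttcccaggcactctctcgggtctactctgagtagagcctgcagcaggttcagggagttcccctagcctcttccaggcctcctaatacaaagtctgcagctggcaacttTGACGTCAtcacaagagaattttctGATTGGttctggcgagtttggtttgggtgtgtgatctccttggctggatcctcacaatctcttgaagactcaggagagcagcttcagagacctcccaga
H2-Eb1: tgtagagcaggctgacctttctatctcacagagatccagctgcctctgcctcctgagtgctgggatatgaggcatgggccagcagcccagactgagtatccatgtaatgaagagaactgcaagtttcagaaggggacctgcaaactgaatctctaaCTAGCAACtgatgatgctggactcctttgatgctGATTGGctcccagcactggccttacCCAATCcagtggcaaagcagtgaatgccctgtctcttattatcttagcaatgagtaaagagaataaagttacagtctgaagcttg
H2-DMb1: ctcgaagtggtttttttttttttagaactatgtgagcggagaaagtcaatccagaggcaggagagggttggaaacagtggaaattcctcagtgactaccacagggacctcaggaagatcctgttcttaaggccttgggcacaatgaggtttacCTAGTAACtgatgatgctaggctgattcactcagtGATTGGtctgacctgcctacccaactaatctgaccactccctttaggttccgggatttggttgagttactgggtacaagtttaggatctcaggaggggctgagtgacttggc
H2-Aa is at chr17:34287774-34288073 on the minus strand, H2-Eb1 at chr17:34305617-34305916 on the plus strand and H2-DMb1 at chr17:34152941-34153240 on the plus strand, all in GRCm38.p6. The X box core stood at base -94 from the start in H2-Eb1 and at base -97 in H2-DMb1, each followed by a Y box, at -60 and -62, and H2-Eb1 had another Y box on the opposite strand at -35. H2-Aa had the X2 core at base -74 and the Y box at -49. The pair of H2-DMa windows, which are not printed, held neither core, and 1 of them had a Y box at -199. Of 32851 promoter windows of the same length, 3.62% held CTAGNAAC, 1.79% TGACGTCA and 16.1% GATTGG. A match is a description of letters and was not tested as a binding site.

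Values are log2 ratios. Neither the base of the logarithm nor its direction is stated in the labels. The deposited values end at exactly -2 and 2, a 100-fold ratio in log10 units, and were converted to log2. Positive values were read as an animal signal above that of the pool, because the Y-linked gene Eif2s3y fell into 164 arrays with a median of -5.62 and 155 with a median of 1.08. Of 50721 pairs of arrays, 5078 correlated below -0.3, with a lowest r of -0.638, although all arrays carry the same dye orientation per the labels. With the sign turned round, every high value below would be low, while correlations between genes would keep their sign. Array medians lay between -0.08 and 0.14. Levels of different probes are not compared, since each is a ratio to the pool. Of 15 skeletal muscle markers 4 were measured, which is too few to check the labelled tissue.

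H2-Eb1 split the arrays into a large low set and a small high set. Its lowest, median and highest values over the 319 arrays were -2.82, -1.38 and 2.15. Here a gap is the split with the largest sum of squares between its sides, with at least 15 arrays a side, and arrays were treated as clusters where the side means lay over 4 SD apart. H2-Eb1 met that rule (4.68 SD), with 61 arrays above the gap and 258 below. The upper set made up 19.1% of arrays (exact Clopper-Pearson 95% interval 15.0 to 23.9%, counting error only). The edges of the gap, -0.32 and -0.28, were close together, so the split is a division of a skewed distribution with a thin middle rather than an empty interval.

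H2-Aa also met the rule. Its lowest, median and highest values were -2.11, -0.99 and 2.03, its sides were 4.87 SD apart, and 56 arrays lay above its gap, all of them among the 61 of H2-Eb1. A mixture of 2 normal components had the lowest Bayesian information criterion (BIC) for both genes, with means of -1.06 and 0.97 for H2-Aa and of -1.52 and 1.03 for H2-Eb1. Ciita ran from -0.88 through a median of -0.34 to 1.70, its sides were 4.78 SD apart, and its 54 high arrays all lay in the upper sets of H2-Aa and H2-Eb1. A score of B cell markers put 59 arrays above its own gap, and 56 of these were among the 61 arrays high in H2-Eb1. Whether those arrays held more immune cells or more class II RNA in each cell cannot be told apart in bulk tissue.

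The chaperone genes varied less and showed no such clusters. H2-DMa ran from -0.39 through a median of -0.08 to 0.78, with an SD of 0.17 and sides 3.21 SD apart. H2-DMb1 ran from -0.80 through -0.18 to 1.58, with an SD of 0.35 and sides 3.04 SD apart. Both were higher on the arrays above the H2-Eb1 gap, where H2-DMa had a median of 0.16, against -0.10 below it, and H2-DMb1 one of 0.35, against -0.24. The sides were made from H2-Eb1, so these medians are descriptions, without a test.

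H2-Ea had a different shape. It ran from -1.28 through a median of -0.09 to 1.52, with an SD of 0.35, and its sides were 3.86 SD apart, which is short of the rule for clusters. Whether H2-Ea met the rule depended on the setting. Its sides were 4.17 SD apart with array medians subtracted and 4.50 with runs of probes in table order centred, both past the rule. They were 2.04 SD apart after quantile normalization and 1.87 without the first principal component. The median of H2-Ea as deposited was 0.14 above the H2-Eb1 gap and -0.10 below it, and its spread was wider above. Above the gap the SD was 0.64 over 61 arrays, with values from -1.28 to 1.52, and below it the SD was 0.20 over 258 arrays, with values from -0.87 to 1.14. H2-Eb1 itself had SDs of 0.57 above and 0.52 below. The arrays high in H2-Eb1 thus held both the lowest and the highest H2-Ea value of the series.

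No separate group of low H2-Ea values was resolved. Over all arrays 4 components had the lowest BIC, of which the largest held 89.5% of the weight at -0.12 and the lowest 1.01%, a weight of 3.21 arrays, at -0.99. With an SD for each component, 2 components were enough. Above the H2-Eb1 gap 1 component was enough, and below it the second component was a single array at 1.14. Under quantile normalization of the arrays, 2 components were favoured above the gap, with sides 3.49 SD apart and 39 of the 61 arrays on the upper side. The intensities behind the ratios were not analysed here, so whether low H2-Ea ratios lie near background was not tested.

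**Figure D1:**
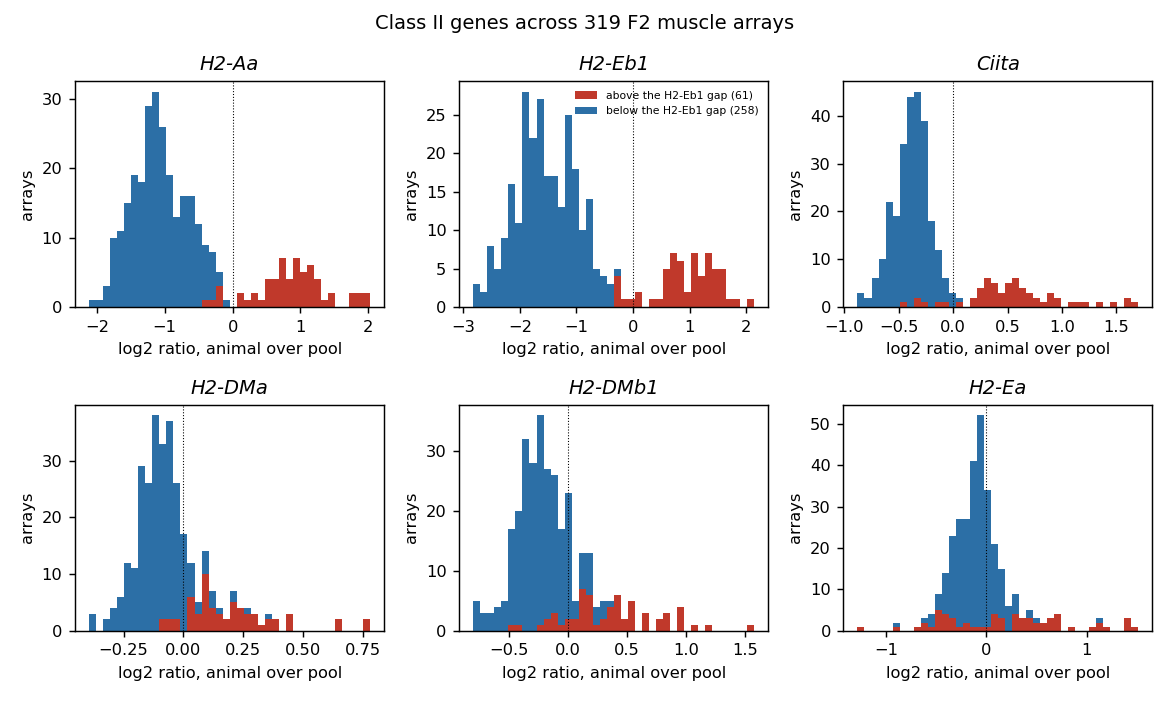
Histograms of the log2 ratio (animal over pool, x axis) of each of the 6 genes over 319 arrays (y axis, number of arrays), with the 61 arrays above the H2-Eb1 gap in red at the base of each stacked bar and the 258 below it in blue on top; the dotted line marks equality with the pool. H2-Aa, H2-Eb1 and Ciita have a low bulk and a high tail, while red arrays of H2-Ea spread from -1.28 to 1.52.

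The difference of H2-Ea and H2-Eb1 carried mostly H2-Eb1. Its lowest, median and highest values were -2.79, 1.29 and 2.79, and its SD was 1.06, against 0.35 for H2-Ea alone. It correlated at r = -0.949 with H2-Eb1 and at 0.00254 with H2-Ea, as a description of 319 values that share both genes. By the same measure H2-DMa minus H2-Eb1 correlated at -0.993 and H2-Aa minus H2-Eb1 at -0.767. A Theil-Sen line of H2-Ea on H2-Eb1 had a slope of 0.04, against 0.73 for H2-Aa, 0.23 for Ciita, 0.21 for H2-DMb1 and 0.08 for H2-DMa, so the residual of H2-Ea (SD 0.34) was nearly H2-Ea itself (r = 0.992). H2-Ea was also compared with other genes in a fit that holds H2-Eb1 as a second regressor. That fit called 248 probes above the H2-Eb1 gap, against 246 without H2-Eb1, and 8264 against 8105 below it. Over all arrays it called 5253, against 11390 without H2-Eb1.

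H2-Aa and H2-Eb1 rose and fell together on both sides of the gap of H2-Aa. Above it, Pearson's r was 0.807 and Spearman's rho 0.805 over 56 arrays. Below it, r was 0.876 and rho 0.871 over 263 arrays. Both had a two-sided permutation p of 1e-05, the smallest that 100000 resamples can give, and 2.25e-05 after adjustment over the 27 relations computed between members. With the 2 arrays of most extreme H2-Aa left out, r was 0.808 above and 0.873 below. In the fit of every tested probe on H2-Aa, limma's adjusted p for H2-Eb1 was 1.25e-11 above and 1.09e-80 below, where 17.7% of all tested probes were called above and 37.7% below. A probe is called where this adjusted p, by Benjamini-Hochberg over all tested probes, is under 0.05.

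Ciita was called with the structural genes on the high arrays. Its r with H2-Eb1 was 0.802 above the H2-Eb1 gap (rho 0.754, 61 arrays, limma adjusted p = 6.85e-13), where 26.7% of probes were called. Below that gap, r was 0.143 (rho 0.141, 258 arrays, limma adjusted p = 0.0564), and the relation was not called, with 36.7% of probes called. It was called under 5 other settings, among them subtraction of array medians (r = 0.214). With H2-Aa, Ciita had an r of 0.712 above the gap of H2-Aa (rho 0.720, limma adjusted p = 3.77e-08) and of 0.226 below it (rho 0.205, limma adjusted p = 0.00139). The permutation p values were 1e-05 for both upper relations, 0.0214 for H2-Eb1 below and 0.0002 for H2-Aa below, or 2.25e-05, 0.0289 and 0.000386 over the 27 relations. With scores of B cell, T cell and macrophage markers in the fit none of these relations of Ciita was called, with r = 0.202 for H2-Eb1 and 0.126 for H2-Aa above. Whether the slopes differ between the sides was not tested.

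Of the H2-DM chains, H2-DMb1 followed H2-Aa on both sides, with r = 0.659 above and 0.584 below (limma adjusted p = 1.11e-06 and 1.93e-23), and H2-Eb1 with r = 0.388 above and 0.444 below (limma adjusted p = 0.00981 and 2.28e-12). With the marker scores in the fit the relation of H2-DMb1 with H2-Eb1 was not called on either side, at -0.105 above and 0.100 below (limma adjusted p = 0.928 and 0.235), and the upper one was not called after quantile normalization either (r = 0.337). For H2-DMa, r with H2-Eb1 was 0.656 above and 0.164 below (limma adjusted p = 5.46e-07 and 0.0286), and with H2-Aa 0.658 above and 0.217 below (limma adjusted p = 2.54e-06 and 0.00255). With the marker scores the H2-DMa relations with H2-Eb1 on both sides and with H2-Aa below were not called. Ciita went with H2-DMa on both sides of its own gap, at r = 0.548 above and 0.431 below (limma adjusted p = 0.000216 and 1.04e-11, the upper one not called with the marker scores), where 40.2% and 63% of probes were called. With H2-DMb1 the relation of Ciita was not called, at r = 0.244 above and 0.0917 below (limma adjusted p = 0.134 and 0.184). Over all 319 arrays H2-DMa and H2-DMb1 correlated at r = 0.564 and rho = 0.366 (permutation p = 1e-05 each), where 68.8% of probes were called for H2-DMa and 73.8% for H2-DMb1, and that r was -0.0010 with the marker scores in the fit and 0.0355 on the arrays low in the B cell score (limma adjusted p = 0.718).

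H2-Ea was not called with its partner chain. With H2-Ea as the regressor, 1.06% of all probes were called above the H2-Eb1 gap and 35% below it. Its relations with H2-Eb1, Ciita and H2-Aa come instead from the fits on those genes, each split at its own gap. The r of H2-Ea with H2-Eb1 was 0.136 above the H2-Eb1 gap (rho 0.129, permutation p = 0.292 for r and 0.321 for rho) and -0.0191 below it (rho -0.0436, permutation p = 0.759 and 0.485), and limma's adjusted p was 0.469 above and 0.832 below. In these fits on H2-Eb1, 26.7% of probes were called above and 36.7% below. With Ciita, H2-Ea had an r of 0.219 above the gap of Ciita and 0.0772 below it (limma adjusted p = 0.183 and 0.268), where 40.2% and 63% of probes were called. In the fits on H2-Aa, 17.7% of probes were called above the gap of H2-Aa and 37.7% below it. The r of H2-Ea with H2-Aa was 0.367 above that gap (rho 0.357, permutation p = 0.00527 and 0.00731, 0.00790 and 0.0116 over the relations), which was called (limma adjusted p = 0.0304), and 0.135 below, which was not (limma adjusted p = 0.0697) but was called under 5 other settings, with r = 0.279 with the marker scores. The upper r was 0.260 without the 2 farthest arrays, and the relation was not called after quantile normalization (r = 0.196) or with blocks of animal number (0.319). Over all arrays H2-DMb1 and H2-Ea had an r of 0.508 and a rho of 0.260, both with a permutation p of 1e-05. On the arrays low in the B cell score that r was 0.143 and was not called (limma adjusted p = 0.0583). H2-DMa and H2-Ea had an r of 0.183 and a rho of 0.0775, and that r turned to -0.188 with the marker scores in the fit. In all, 9 of 12 relations were called above the gaps, 7 of 12 below them and 3 of 3 over all arrays. In the same fits 17.7 to 40.2% of all probes were called above the gaps, 36.7 to 63% below and 68.8 to 73.8% over all arrays. With the marker scores in the fit 4 of 12 relations were called above and 4 of 12 below. With those scores limma called 0 of 23189 probes for H2-Eb1 above its gap, whereas for H2-Aa above its gap it called more probes than without them.

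**Figure D2:**
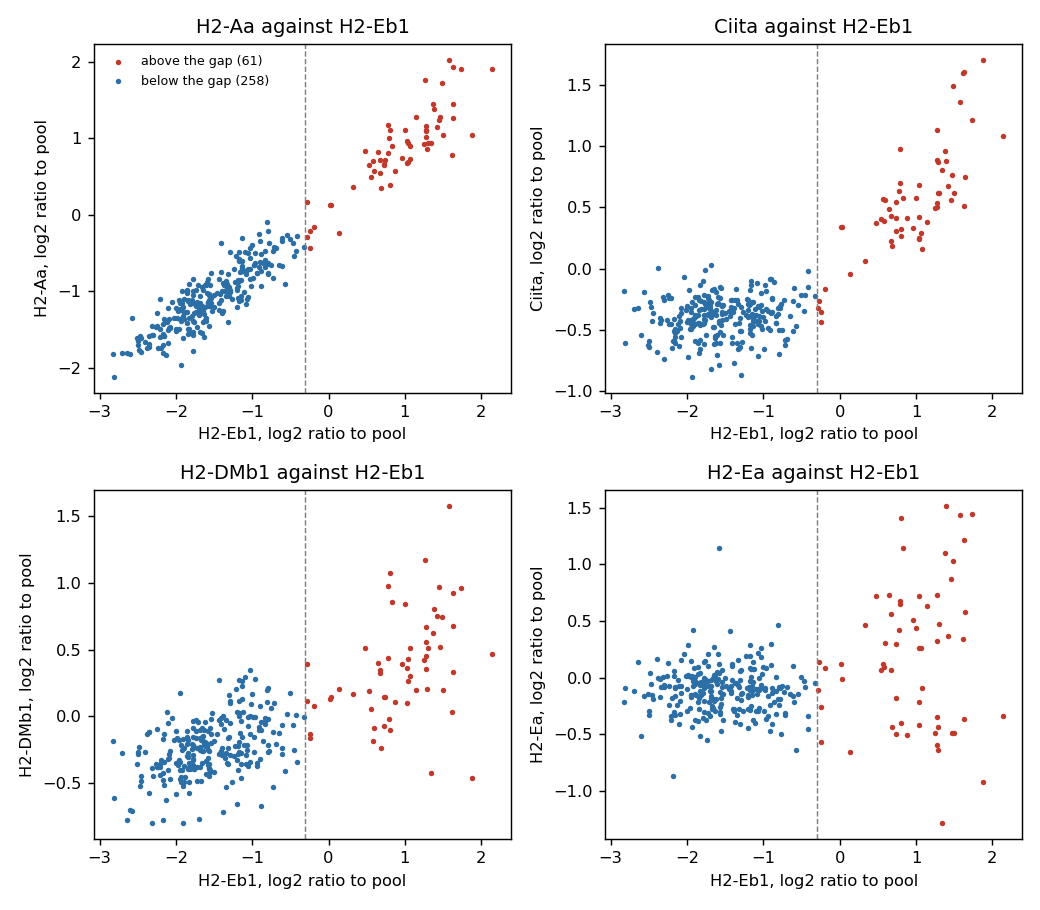
Each point is 1 array, with the log2 ratio of H2-Eb1 on the x axis and that of H2-Aa, Ciita, H2-DMb1 or H2-Ea on the y axis; red marks the 61 arrays above the H2-Eb1 gap (dashed line) and blue the 258 below it. H2-Aa climbs with H2-Eb1 throughout, whereas H2-Ea stays level and widens on the right.

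Macrophage genes accompanied H2-Aa and H2-Eb1 on the low arrays, though not alone. Below the gap of H2-Aa all 15 macrophage probes had positive slopes past the test, where 12% of all tested probes did and 25.7% had negative ones, with a median r of 0.741 against -0.0682 over all probes. Mpeg1, which encodes the pore-forming perforin-2 of macrophages, had an r of 0.810, and Fcgr3, an Fc receptor for antibody, one of 0.786. The lowest of the list was Cd68 at 0.211 (limma adjusted p = 0.00314). For H2-Eb1, 14 of 15 were positive, where 11.7% of probes were, and Cd68 was the exception (r = 0.135, limma adjusted p = 0.0741). Of 13 B cell probes, 4 were positive and 1 negative with H2-Aa below its gap, led by Cd22, a B cell surface lectin (r = 0.427). The B cell list therefore had a median r of only 0.0280 there. Dendritic cell genes were also called with H2-Aa below its gap. Cd83 had an r of 0.771, Clec10a 0.704 and the smallest, Cd209a, 0.166 (limma adjusted p = 0.0246). With H2-Eb1 below its gap the same genes had 0.737, 0.721 and 0.115, and Cd209a was not called. Above the gaps Cd83 had 0.812 with H2-Aa and 0.857 with H2-Eb1, while Clec10a was called with neither. The fat cell gene Plin1 had 0.515 with H2-Aa below its gap and Lep 0.0513.

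B and T cell genes were called with H2-Aa and H2-Eb1 on the high arrays. Above the gap of H2-Aa, 11 of 13 B cell probes and 9 of 9 T cell probes rose with H2-Aa, where 9.66% of all tested probes did, beside 13 of 15 macrophage probes. Cd79a, a signalling chain of the B cell receptor, had an r of 0.705, and Cd2, an adhesion receptor of T cells, one of 0.676. Below the gap, where 12% of all probes rose, 2 of 9 T cell probes rose with H2-Aa, Cd2 (r = 0.740) and Cd3g, a chain of the T cell receptor complex (r = 0.296), and whether the sides differ was not tested. With H2-Eb1 above its gap, 12 of 13 B cell probes, 8 of 9 T cell probes and 11 of 15 macrophage probes were positive (10.8% of all probes). Below it, where 11.7% of all probes were positive and 36.7% were called in either direction, 2 of 9 T cell probes were positive, again with Cd2 (r = 0.752), and 1 was negative. Costimulatory genes did the same, with 7 of 9 positive for both genes, led by Cd86 with H2-Aa (r = 0.825) and Icosl with H2-Eb1 (r = 0.825). In a fit with the B cell, T cell and macrophage scores as covariates limma called 0 of 23189 probes for H2-Eb1 above its gap, against 6181 without them, and 1073 had an unadjusted p under 0.05. For H2-Aa above its own gap the count went the other way, and rose with the scores from the 4093 called without them.

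Ciita went with B cell genes on the low arrays. Below its gap all 13 B cell probes had positive slopes, where 32.5% of all tested probes did and 30.5% had negative ones, with a median r of 0.362. Cd79b, the other signalling chain of the B cell receptor, had an r of 0.569 and Ighm, the IgM heavy chain, one of 0.168 at its weakest probe. Of 15 macrophage probes 10 were positive, with a median r of 0.171, and 6 of 9 T cell probes, led by Cd3e, a chain of the T cell receptor complex (r = 0.529). Above the gap, 7 of 13 B cell, 6 of 9 T cell and 11 of 15 macrophage probes were positive, and 1 macrophage probe was negative, where 20.1% of all probes were positive and 20% negative. Cd22 reached r = 0.876 there. Below the H2-Eb1 gap, H2-DMa had 10 of 13 B cell and 6 of 15 macrophage probes positive (23.7% of all probes). H2-DMb1 had 3 of 13 and 14 of 15 positive there (11.2% of all probes).

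Few of these genes were called with H2-Ea. Above the H2-Eb1 gap, where 0.69% of all probes were positive, limma called 0 of 13 B cell probes (3 at an unadjusted p under 0.05), 0 of 15 macrophage probes (0 unadjusted) and 0 of 13 probes of other class II presentation genes (0 unadjusted). Of 9 T cell probes 2 rose, Cd8a (r = 0.502, limma adjusted p = 0.00887) and Cd247, a chain of the T cell receptor complex (r = 0.465, limma adjusted p = 0.0247), and 8 had an unadjusted p under 0.05. Below the gap 19.2% of all probes were positive and 15.8% negative, and 0 of 15 macrophage probes were positive and 1 negative, Lyz2, the lysozyme of macrophages (r = -0.183). Cd5, a T cell surface receptor, led its list there (r = 0.470). Flt3, a receptor of dendritic cell precursors, was the called gene of the dendritic cell list on both sides, at r = 0.434 above and 0.241 below.

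**Figure D3:**
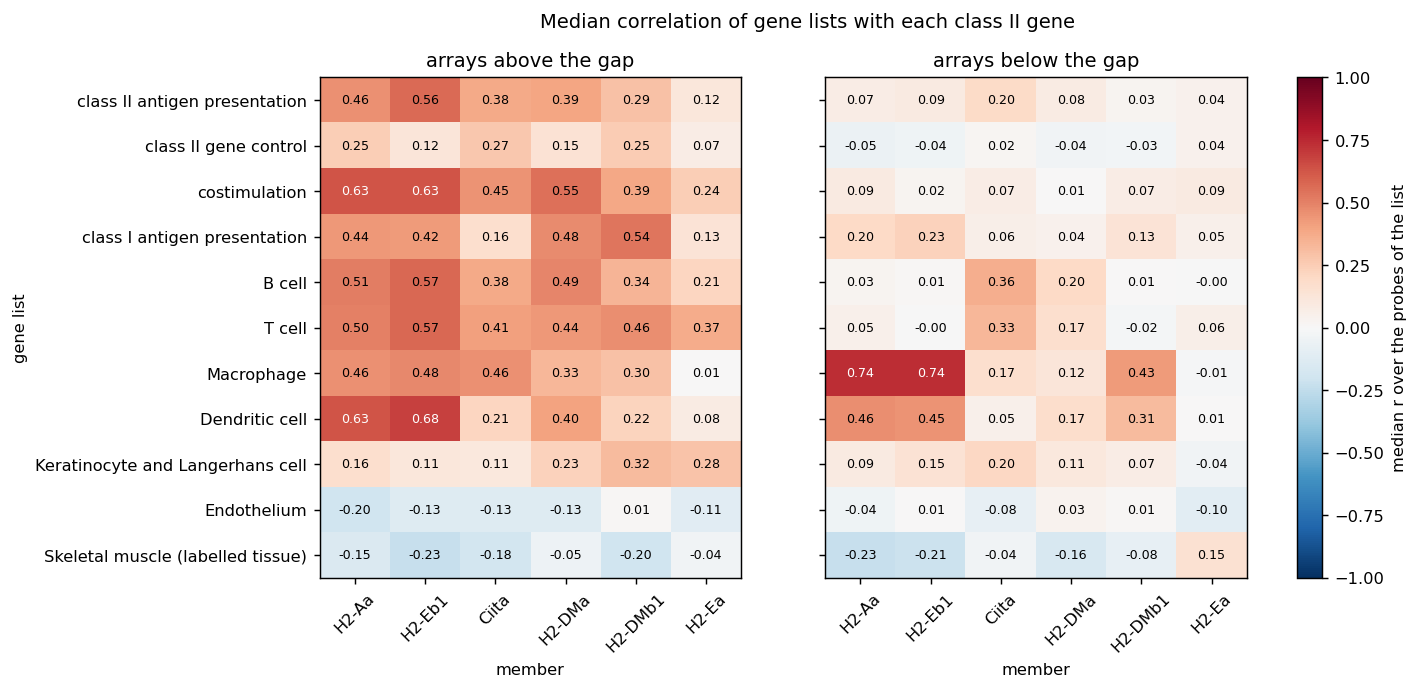
Median Pearson r between the probes of each gene list (rows) and each of the 6 genes (columns), for arrays above the gap (left) and below it (right), each gene with its own gap or, for H2-DMa, H2-DMb1 and H2-Ea, that of H2-Eb1. Macrophage genes stand at 0.74 with H2-Aa and H2-Eb1 below the gap, B cell genes at 0.36 with Ciita, and H2-Ea lies between -0.10 and 0.15 there. Above the gap H2-Ea is highest with the T cell list.

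Of 13 probes of other class II presentation genes, 8 rose with H2-Aa above its gap, where 9.66% of all probes did. Below it 5 rose and 1 fell, where 12% and 25.7% of all probes did. Ctss, the cathepsin that cuts the invariant chain, led with r = 0.817 above and 0.738 below at 1 of its probes, and Lgmn, a lysosomal protease, had 0.620 below. The Ctss probes differed from each other. With H2-Eb1 above its gap they had r = 0.777 and -0.00112, and with H2-DMb1 above the H2-Eb1 gap 0.543 and -0.460. With Ciita the leading gene was H2-Oa, a chain of H2-O that restrains H2-DM, at r = 0.910 above and 0.604 below. Ifi30, the lysosomal thiol reductase, followed at 0.892 above and 0.476 below. Of 24 probes of class II control genes, 10 rose and 3 fell with Ciita above its gap, where 20.1% and 20% of all probes did. Below it 10 rose and 9 fell, where 32.5% and 30.5% of all probes did, so those counts were near the share over all probes. There Rfx5, a subunit of the factor that binds the X box, rose (r = 0.455) while Rfxap, another subunit, fell (r = -0.453). With H2-Aa the interferon regulatory factor gene Irf1 led below the gap at r = 0.612 and stood at 0.754 above it. Cd74 and H2-Ab1 were not analysed here.

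The genes most like each member over all arrays mix the division between sides with the relation within them, so these values describe the whole set. H2-Aa was most like Ly86, the partner of the receptor RP105 (r = 0.964), Cd83 (0.954), Il10ra (0.953), Ptpn18 (0.951) and Mpeg1 (0.949). H2-Eb1 was most like Ly86 (0.960), Il10ra (0.956), Gmfg (0.953), Themis2 (0.952) and Mpeg1 (0.952). For Ciita the list was H2-Oa (0.945), Arhgap4 (0.936), Bcl11a (0.933), Cd79b (0.931) and Pglyrp2 (0.928). H2-DMa had lower leading values, with Coro1a (0.800), Cxcl16 (0.788), Epsti1 (0.785), Rnase6 (0.785) and Arhgap25 (0.784), and H2-DMb1 had the immunoproteasome subunits Psmb8 (0.828) and Psmb9 (0.789), the class I genes H2-Q1 (0.796) and H2-M3 (0.793), and Cd48 (0.794). H2-Ea was lowest of all, with Fgd2 (0.652), Tgm1 (0.525), Rassf5 (0.524), Dgka (0.507) and Cd8a (0.498). The most negative were Nags (-0.786), Nme6 (-0.778) and Ksr2 (-0.774) for H2-Aa, Ksr2 (-0.779), Nags (-0.778) and Nme6 (-0.774) for H2-Eb1, and Mroh8 (-0.767), Mrrf (-0.739) and Mapk12 (-0.736) for Ciita. For H2-DMa they were Neo1 (-0.655), Scgb1a1 (-0.636) and Ksr2 (-0.635), for H2-DMb1 Nme6 (-0.726), Rab25 (-0.705) and Tmc3 (-0.704), and for H2-Ea Rnf8 (-0.455), Hagh (-0.441) and Rps2 (-0.437).

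At equal H2-Eb1, the genes that followed H2-Ea on the high arrays were led by genes of its own chromosome. Above the H2-Eb1 gap 248 of 23188 probes were called, which is 1.07% (0.781% positive and 0.289% negative), and all of the 20 leading genes were on chromosome 17, although more of the called named probes lay elsewhere. Of 595 chromosome 17 probes, 50 were called (8.40%), against 103 of 12144 other named probes (0.848%). The count moved with the setting, to 47 with the marker scores in the fit and to 4594 after the first principal component was removed, which put 138 arrays above the gap. The chromosome 17 share was 4.71% with the scores, against 0.0247% of other named probes, and 31.3% after removal of the component, against 18.7%. All splits of arrays into sides were made after the data had been seen. Fgd2, an activator of the GTPase Cdc42, rose by 0.46 ± 0.05 (SE) log2 units per log2 unit of H2-Ea (partial r = 0.781, limma adjusted p = 4.13e-10). H2-Q5, a class I gene, had a partial r of 0.754 and Gnptg, a subunit of the enzyme that tags lysosomal proteins, one of 0.775.

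Other chromosome 17 genes went down as H2-Ea went up. H2-Q7, another class I gene, had a partial r of -0.789 (slope -0.37 ± 0.04 SE, limma adjusted p = 2.86e-10). Gfer, an oxidase of the mitochondrial intermembrane space, had -0.769, the complement gene C4b -0.727 and the methionine reductase gene Msrb1 -0.653. The ribosomal protein gene Rps2 had -0.695 at 1 probe, but 1 of its 13 probes was called, and Rps2 has near-identical copies in the genome. On the positive side the class II genes H2-Aa (0.637) and H2-DMb1 (0.628) and the immunoproteasome subunits Psmb8 (0.652) and Psmb9 (0.592) were called, while H2-DMa was not (-0.197, limma adjusted p = 0.542). Rgl2, a Ral activator, had 0.604.

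Over all 319 arrays 5253 probes were called at equal H2-Eb1, or 22.7%, with 12% positive and 10.7% negative, and 1349 were called with the marker scores in the fit. The 15 leading genes were Fgd2 (partial r = 0.619), H2-Q5 (0.532), Gnptg (0.524), C4b (-0.496), H2-Aa (0.488), H2-Q7 (-0.475), Psmb8 (0.460), Rgl2 (0.453), Tgm1 (0.450), Rps2 (-0.448), Rassf5 (0.444), H2-DMb1 (0.432), Gfer (-0.426), Dgka (0.420) and Msrb1 (-0.416). Of these, Tgm1, a transglutaminase of the epidermis on chromosome 14, Rassf5, a Rap1 effector on chromosome 1, and Dgka, a lipid kinase on chromosome 10, lie elsewhere. In the deposited table the probe of H2-Ea is at row 200, that of Tgm1 at row 147, Rassf5 at row 526 and Dgka at row 13291. Rassf5 was called below the gap (partial r = 0.556) and not above it (0.366, limma adjusted p = 0.119).

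Genes next to H2-Ea held some of these calls. Among the 40 nearest measured genes, with 43 tested probes, 4 probes were positive and 2 negative above the gap, where 0.781% and 0.289% of all probes were, 13 and 3 below, where 19.4% and 16.2% of all probes were, and 12 and 3 over all arrays, where 12% and 10.7% were. The 4 positive ones above were H2-Aa, H2-DMb1, Psmb8 and Psmb9, and the negative ones were C4b and Btnl1, a butyrophilin-like gene (partial r = -0.646). Tap1 (0.0995), Brd2 (0.179), Notch4 (0.417, limma adjusted p = 0.0644) and H2-K1 (0.107) were not called there. Of the windows of 50 measured genes along the chromosome, that just before H2-Ea held 11 calls in 56 probes and that from H2-Ea onward 8 in 57. A window from 101 to 150 genes before H2-Ea held 10 in 67, among them Gnptg, and the windows from 50 genes after it outward held 0 to 3 each, among them Aars2, 113 genes after it.

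H2-Aa at equal H2-Eb1 picked out many of the same chromosome 17 genes on the other set of arrays. Below the gap, 414 probes were called (1.79%), of them 92 of 595 on chromosome 17. The leaders were Lta, the cytokine lymphotoxin alpha (partial r = 0.705), H2-Q5 (0.627), Gfer (-0.620), Zfp871 (-0.616) and Adgrf4 (-0.612). Above the gap H2-Aa at equal H2-Eb1 had 7744 probes called (33.4%), at 38.2% of chromosome 17 and 33.1% of other named probes. There 6 of the 20 leading genes were on chromosome 17, against 18 of 20 below the gap. Setting aside H2-Aa itself, 49 chromosome 17 probes were called for H2-Ea above the gap and 91 for H2-Aa below it, and 42 were in both, which is 85.7% of the first list and 46.2% of the second. All 42 had the same sign. The arrays of the 2 fits do not overlap, but all share the pool. With H2-DMb1 below the gap 36 of 49 were shared and all 36 had the same sign, whereas with H2-DMa 4 of 21 shared probes and with Ciita 12 of 31 had the same sign. In these fits below the gap 7.91% of all probes were called for H2-DMb1, 47.7% for H2-DMa and 66.7% for Ciita.

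Below the gap, genes of other chromosomes led for H2-Ea. There 8264 probes were called (35.6%), at 41.2% of chromosome 17 and 34.3% of other named probes, and 1 of the 20 leading genes was on chromosome 17. The leaders were Hk1, a hexokinase (partial r = 0.671), Pik3r5, a subunit of phosphoinositide 3-kinase gamma (0.661), Rexo1 (0.579), Pkhd1 (0.565) and Diras1 (0.564). Still, 33 of the 50 chromosome 17 probes called above the gap were called below it, all 33 with the same sign. In a fit over all arrays with the side as an interaction, added after the data were seen, 5223 probes had a different slope on H2-Ea on the sides (22.5%). Of the 50 with the largest t for that difference, 41 were in the first 10% of the deposited table and 2 were positive. Hk1, Pik3r5, Rexo1, Pkhd1 and Diras1 also lie in that part, at rows 126 to 1243.

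The position of a probe in the deposited table moved with the relation to H2-Ea below the gap. Of the 50 probes with the largest t there, 43 were in the first 10% of the table, and above the gap 6 of 50 were. H2-Ea is at row 200 and Ciita at row 232. The median r with H2-Ea by twentieth of the table was -0.0198 in the first and -0.0833 in the last above the gap, and 0.0933 and -0.0466 below it. Other members moved with the order too: H2-Eb1 above its gap had -0.106 and -0.00375, and Ciita below its gap 0.0350 and -0.0391, while H2-Aa below its gap had -0.0690 and -0.0692. What this order stands for on the array was not tested.

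**Figure D4:**
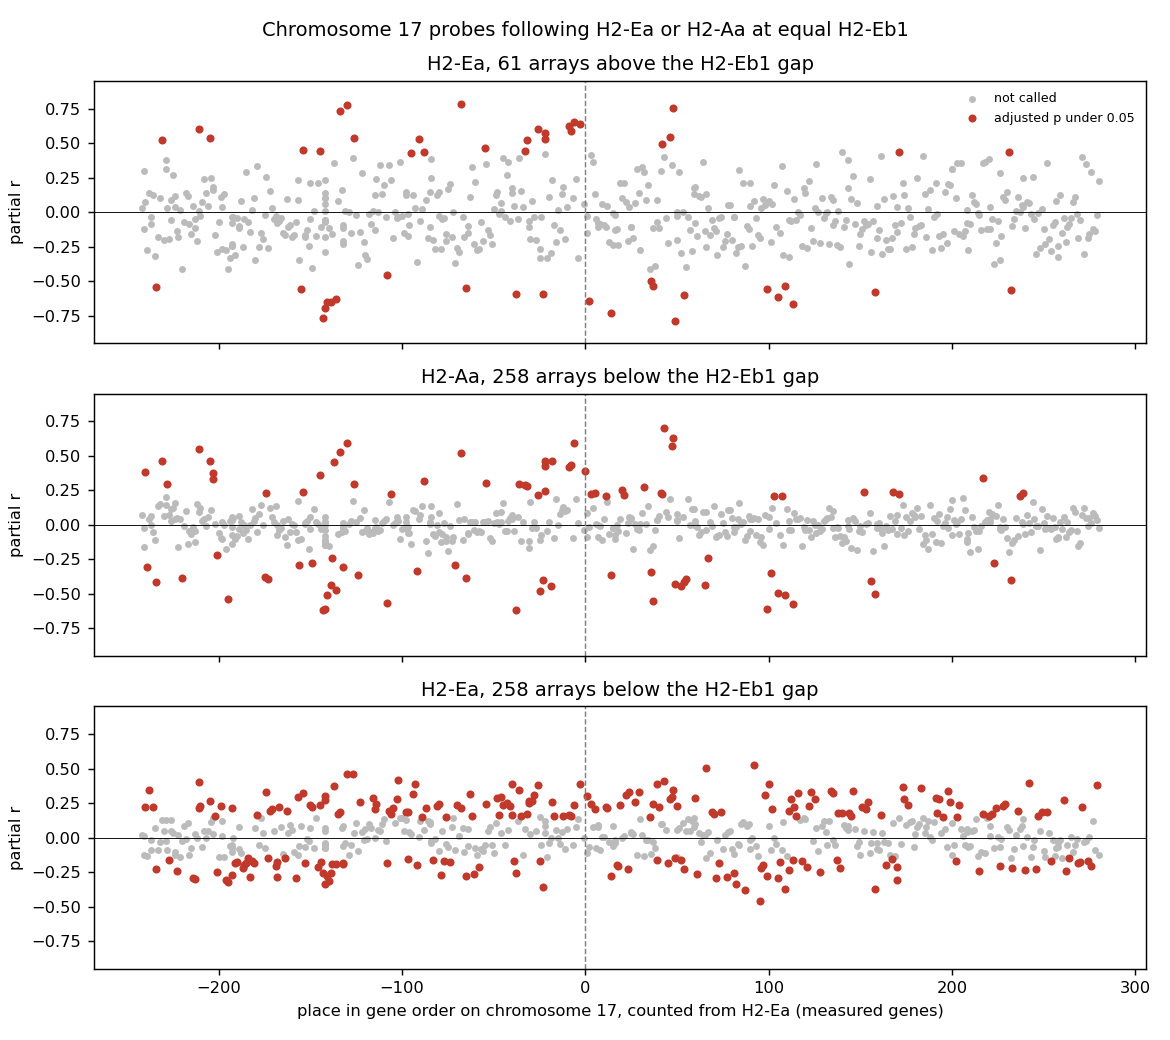
Partial r of each chromosome 17 probe (y axis) by its place in gene order counted from H2-Ea (x axis, measured genes) in 3 fits at equal H2-Eb1: H2-Ea on 61 arrays above the gap (top), H2-Aa on 258 arrays below it (middle) and H2-Ea on the 258 below (bottom); red points have an adjusted p under 0.05. The top and middle panels show red points of both signs, unevenly along the chromosome, with 0 in either panel from 250 to 299 genes after H2-Ea.

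**Figure D5:**
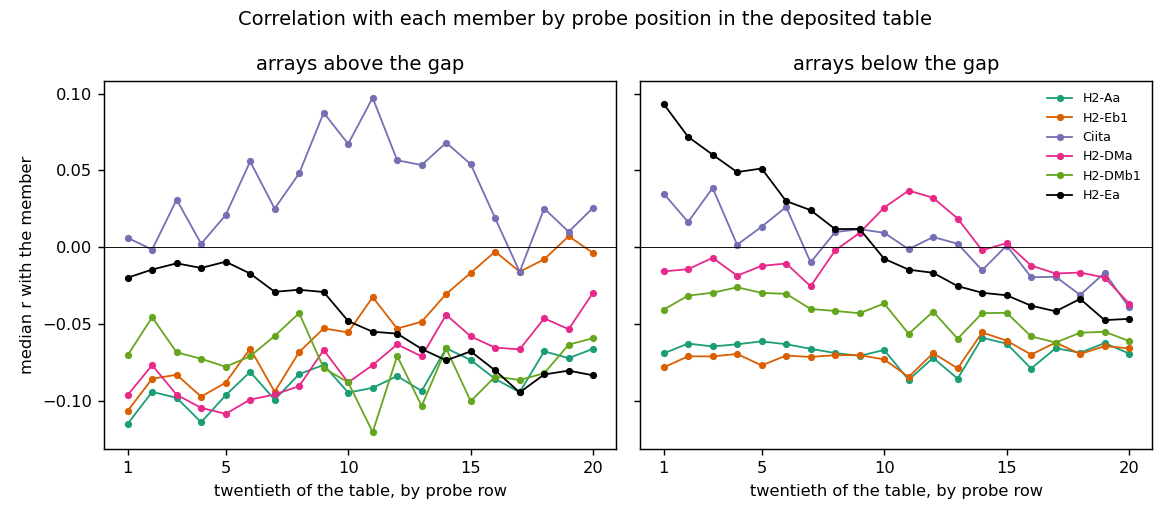
Median r of probes with each member (y axis) by twentieth of the deposited table (x axis), for arrays above the gap (left) and below it (right), 1 line per gene. H2-Ea below the gap starts at 0.0933 and ends at -0.0466, while H2-Aa and H2-Eb1 span 0.0274 and 0.0289 there.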

How the data were processed

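The submitters deposited 1 log10 ratio per probe and array, from 2-colour arrays of 319 F2 muscle samples (Cy3) against a pool (Cy5), per the labels. The base of the logarithm and the direction were inferred from the values. No source used here states how image values became ratios. The deposited ratios were multiplied into log2 ratios. Array number limits the precision, since arrays give no counts.

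Probes with values on at least 80% of arrays were tested, 23190 of 23382, and 192 were left out. Names came from the platform table through RefSeq GRCm38.p6, for 12647 probes by gene ID and 214 by symbol, and 778 symbols were not matched. Every tested probe was fitted on each gene by limma 3.58.1 (lmFit and eBayes) in R 4.3.3, on all arrays and on each side of a gap, alone and with H2-Eb1 as a second regressor, with Benjamini-Hochberg adjustment at 0.05. H2-Aa, H2-Eb1 and Ciita used their own gap, and the others that of H2-Eb1. Correlations had two-sided permutation tests of 100000 resamples, in Python 3.11.15 with scipy 1.17.1. Normal mixtures of 1 to 4 components with a common SD were compared by BIC.

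The genes and lists were chosen with earlier results of these data known. Named genes were the 5 highest and 3 most negative r for each member, the 15 largest t for H2-Ea at equal H2-Eb1, the 20 measured genes on each side of H2-Ea, and of each list the 3 largest and the smallest r; the leading genes on each side were chosen after their values were seen. On simulated data for H2-Ea at equal H2-Eb1, 77% of slopes of 0.25 SD and 100% of 0.5 SD were recovered, with 12 false calls among 23190 probes. The simulated probes varied independently of each other and covered all 319 arrays. These figures therefore do not carry over to the fits on the sides of a gap or to probes that vary together. Alternatives covered scaling, outlying arrays, ranks, animal number and marker scores.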

Additional observations from a re-analysis of the deposited data

How the results depend on the processing

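Counts of called probes moved by over 1.5 times under several settings, and the cause was not tested. In these fits the gaps were found again where a setting changed the values, so a side can hold other arrays. Without the first component 181 arrays lay below the H2-Eb1 gap and 138 above it, against 258 and 61 as deposited. With the first principal component removed, the counts were 6895 for H2-Aa all, 80 for H2-Aa below, 1281 for H2-Aa above, 4541 for H2-Eb1 all, 104 for H2-Eb1 below, 116 for H2-Eb1 above, 6812 for Ciita below, 14153 for Ciita above, 5073 for H2-DMa all, 2196 for H2-DMa below, 863 for H2-DMa above, 5744 for H2-Ea all, 1525 for H2-Ea below, 4546 for H2-Ea above, 1532 for H2-Ea at equal H2-Eb1 below and 4594 for H2-Ea at equal H2-Eb1 above. On the arrays below the gap of the B cell score, the counts were 9159 for H2-Aa all, 10316 for H2-Eb1 all, 5805 for H2-DMa all, 5957 for H2-DMa below, 8010 for H2-DMb1 all and 8585 for H2-Ea at equal H2-Eb1 all. With array medians subtracted, the counts were 5156 for H2-Aa below, 4655 for H2-Eb1 below, 673 for H2-Ea above and 426 for H2-Ea at equal H2-Eb1 above. After quantile normalization, the counts were 5716 for H2-Aa below, 2164 for H2-Aa above, 5058 for H2-Eb1 below, 2506 for H2-Eb1 above, 775 for Ciita above, 7522 for H2-Ea all, 80 for H2-Ea above and 101 for H2-Ea at equal H2-Eb1 above. With runs of probes in table order centred, a setting added after seeing the data, the counts were 5383 for H2-Aa below, 4993 for H2-Eb1 below, 752 for H2-Ea above and 525 for H2-Ea at equal H2-Eb1 above. Without 10 arrays of outlying SD, the counts were 6275 for H2-Aa above, 3776 for Ciita above, 7589 for H2-DMa above and 632 for H2-Ea above. On ranks, the counts were 7708 for H2-Aa above, 4670 for Ciita above, 4399 for H2-DMa below, 7651 for H2-DMa above, 7067 for H2-Ea all, 144 for H2-Ea above and 90 for H2-Ea at equal H2-Eb1 above. With marker scores as covariates, the counts were 10378 for H2-Aa above, 5404 for H2-Eb1 below, 0 for H2-Eb1 above, 7185 for Ciita all, 1974 for Ciita below, 5272 for H2-DMa all, 4678 for H2-DMa below, 4438 for H2-DMb1 below, 1325 for H2-Ea all, 45 for H2-Ea above, 1349 for H2-Ea at equal H2-Eb1 all and 47 for H2-Ea at equal H2-Eb1 above. With blocks of animal number, the counts were 137 for H2-Ea above. As deposited they were 17667 for H2-Aa all, 8747 for H2-Aa below, 4093 for H2-Aa above, 17666 for H2-Eb1 all, 8509 for H2-Eb1 below, 6181 for H2-Eb1 above, 17105 for Ciita all, 14600 for Ciita below, 9312 for Ciita above, 15950 for H2-DMa all, 10304 for H2-DMa below, 4240 for H2-DMa above, 17123 for H2-DMb1 all, 7047 for H2-DMb1 below, 11390 for H2-Ea all, 8105 for H2-Ea below, 246 for H2-Ea above, 5253 for H2-Ea at equal H2-Eb1 all, 8264 for H2-Ea at equal H2-Eb1 below and 248 for H2-Ea at equal H2-Eb1 above. Relations called were 2 of 12 below, 5 of 12 above and 1 of 3 over all arrays without the first component, 4 and 4 of 12 with marker scores, and 0 of 3 on the arrays low in the B cell score. Of the relations, 7 turned sign: without the first component H2-Eb1 with H2-DMa below (-0.0155), H2-DMa with H2-DMb1 (-0.0021) and H2-DMa with H2-Ea (-0.111), with marker scores H2-Eb1 with H2-DMb1 above (-0.105), H2-DMa with H2-DMb1 (-0.0010) and H2-DMa with H2-Ea (-0.188), and on the arrays low in the B cell score H2-DMa with H2-Ea (-0.0765). In all, 213 relations kept sign and side of the threshold, 25 lost the call and 16 gained it, and of the 15 genes named at equal H2-Eb1 292 values kept theirs, 7 lost and 1 gained it. The number of components moved to 2 for H2-Ea with an SD for each component, to 2 above and 1 below the gap after quantile normalization, to 1 below the gap without outlying arrays or without the 2 highest and 2 lowest, and to 1 for H2-Ea minus H2-Eb1 without the first component. Ratios limit what can be said: signal over background was not analysed here, and probes at the limits hold bounds only. No paired analysis was possible because all arrays form 1 group.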
